A study of Mus musculus with 6 samples.

Results

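The 9 genes described here encode proteins of the tight, gap and adherens junctions that build the blood-testis barrier. They are Tjp1, Ocln, Cldn11, F11r, Gja1, Cdh1, Cdh2, Ctnna1 and Ctnnb1. They were chosen by name, and all 9 of 9 were found by their GENCODE M21 symbols among the 54886 genes listed in each of 6 RNA-sequencing libraries. All libraries came from the same line, GC-2spd, an immortalised mouse cell line of BALB/c background that the labels describe as derived from spermatocytes. All cultures were grown in DMEM with fetal bovine serum, penicillin and streptomycin. The 3 PM_100 libraries were from cells given 100 μg/mL PM2.5, fine particulate matter taken from an urban reference material, for 48 h. The 3 PM_0 libraries were from untreated cells, for which the labels name normal medium and the methods of the study also name PBS. The comparison asks how the RNA of the barrier junctions differed between exposed and untreated cells, and each result is given with and without PM_0_2, because that library stood apart from the others. Only 1 cell line was used, and nothing in the labels says that the 3 libraries of a group came from separate cultures, so p-values measure the spread between these libraries, which may be technical.

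In the testis, the barrier is built between neighbouring Sertoli cells and divides the seminiferous epithelium, so that developing spermatocytes must pass it while it stays closed. Claudins, occludin and the JAM proteins seal the intercellular cleft from the membrane and bind the scaffold ZO-1 inside the cell. Connexins form channels for small molecules, and cadherins hold cells together through β-catenin and α-catenin, which link them to actin. β-catenin also serves as a transcriptional co-activator in Wnt signalling. A cell line cultured alone has no Sertoli cell to form that barrier with, so the values below are RNA levels of junction genes in these cells and not measures of a barrier.

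The labelled cell type was set against marker genes. Of 18 germ cell markers only Hspa2 had a mean FPKM (fragments per kilobase of gene length, scaled to the depth of the library by the authors) of at least 1, between 2.51 and 5.52. Of these 18 markers, 7 (Dazl, Mael, Piwil1, Hormad1, Spo11, Pgk2 and Tnp1) were at 0 reads in all 6 libraries. Of 11 fibroblast markers, 8 had a mean of at least 1, with a summed FPKM between 803 and 1422, against 3.50 to 6.01 for the germ cell markers. Of 12 Sertoli cell markers, Gata4 (11.1 to 22.3) and Inha had a mean of at least 1. By these markers, the libraries did not show the RNA of spermatocytes, which does not test the origin that the labels give. The genes are therefore described below as junction genes of GC-2spd cells.

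The libraries held between 16209346 and 18003186 reads on genes. PM_0_2 had 14.5% of its reads on mitochondrially encoded genes against 1.65% to 1.95% in the other libraries, and its log2(FPKM + 1) values correlated across genes with those of the other controls at 0.742 and 0.745, against 0.992 between PM_0_1 and PM_0_3. Genes are not independent replicates, so these correlations only describe the libraries. PM_100_3 stood apart to a lesser degree. Its values correlated at 0.9502 and 0.958 with the other PM_100 libraries and at 0.9721 and 0.9723 with PM_0_1 and PM_0_3, so that by this measure it lay closer to these controls than to its own group. No pair of libraries held identical values. In bulk RNA such as this, fewer cells with a transcript and less of it per cell cannot be told apart.

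The promoters of 3 members are shown because, of the members with a window, these are the ones whose unadjusted p was under 0.05 without PM_0_2. Cdh2 met this as well, but no window was found for it. Sequences are from RefSeq on GRCm38.p6, read along the gene's strand up to a RefSeq start site. Such a site need not be the gene start in GENCODE M21. Windows were found for 6 of the 9 members (Tjp1, Ocln, Cldn11, F11r, Gja1 and Ctnnb1). Capitals mark matches to GCGTG, the core bound by the aryl hydrocarbon receptor, to CAGGTG, an E-box of the kind that cadherin repressors bind, and to TGAGTCA, the AP-1 motif, each on either strand.
Gja1 (chr10:56377050-56377299, plus strand): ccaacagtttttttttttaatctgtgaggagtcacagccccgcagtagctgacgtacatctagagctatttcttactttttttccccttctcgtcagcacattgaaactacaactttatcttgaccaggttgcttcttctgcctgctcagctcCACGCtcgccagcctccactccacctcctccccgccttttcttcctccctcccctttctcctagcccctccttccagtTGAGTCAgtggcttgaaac
F11r (chr1:171437311-171437534, plus strand): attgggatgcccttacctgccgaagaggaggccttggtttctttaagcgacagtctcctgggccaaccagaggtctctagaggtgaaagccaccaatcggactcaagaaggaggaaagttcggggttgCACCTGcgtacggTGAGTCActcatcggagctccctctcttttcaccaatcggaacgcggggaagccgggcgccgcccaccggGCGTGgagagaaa
Ctnnb1 (chr9:120933150-120933399, plus strand): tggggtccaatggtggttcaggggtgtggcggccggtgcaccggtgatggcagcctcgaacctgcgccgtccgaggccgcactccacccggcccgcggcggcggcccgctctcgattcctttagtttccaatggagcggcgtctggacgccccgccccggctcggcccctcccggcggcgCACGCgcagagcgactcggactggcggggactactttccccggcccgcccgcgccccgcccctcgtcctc
The Gja1 window holds CACGC from base -97 and TGAGTCA from base -19, counted from the start site. The F11r window holds CACCTG from -122, TGAGTCA from -109 and GCGTG from -39. The F11r sequence is printed only up to 171437534, just before the start of the gene in GENCODE M21. Its positions are counted from the RefSeq start site, where the full window ends at 171437560. The Ctnnb1 window holds CACGC from -70. Among 32851 promoter windows of 250 bases, 28.2% held GCGTG or CACGC, 17.2% held CAGGTG or CACCTG and 4.46% held TGAGTCA or TGACTCA. None of these motifs was found in the windows of Tjp1 and Cldn11. Ocln, which is not printed, held CACGC from -119 in the window of a start site. In the window of another start site it held CACGC from -180 and CAGGTG from -213 and -68. For Ctnnb1, another start site places the same CACGC at -248. The motifs do not overlap each other in the printed windows, and a match describes letters only.

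Among the tight junction genes, the scaffold and a JAM were well expressed, while occludin and claudin-11 were not. Tjp1, which encodes ZO-1 (ENSMUSG00000030516, chromosome 7, 65296165 to 65527781, minus strand, GRCm38), had FPKM of 27.2, 18.98 and 24.0 in PM_0_1, PM_0_2 and PM_0_3 and of 27.6, 28.3 and 25.5 in PM_100_1, PM_100_2 and PM_100_3. The groups overlapped, and PM_0_2 was the lowest library. The means were 23.4 ± 4.15 and 27.1 ± 1.46 (SD, n = 3 each). The log2 fold change of PM_100 against PM_0, on log2(FPKM + 1), was 0.22 with a standard error of 0.21 (limma, adjusted p = 0.875), and 0.08 with a standard error of 0.10 without PM_0_2 (limma, adjusted p = 0.730). The 95% interval of the latter, -0.18 to 0.35, bounds the difference that these libraries allow.

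F11r, which encodes JAM-A (ENSMUSG00000038235, chromosome 1, 171437535 to 171464603, plus strand), had FPKM of 53.2, 96.4 and 54.4 in the PM_0 libraries. In the PM_100 libraries it had 45.8, 45.5 and 44.4. Every exposed library was below every control, and PM_0_2 was the highest of the 6. The means were 68.0 ± 24.6 in PM_0 and 45.3 ± 0.730 in PM_100 (SD, n = 3 each), a ratio of 0.666, which was 0.841 without PM_0_2. The log2 fold change was -0.52 (SE 0.29, limma, adjusted p = 0.875) with all libraries and -0.24 (SE 0.08, limma, adjusted p = 0.267) without PM_0_2. The difference thus did not pass an adjusted p of 0.05 in either comparison, and the exact permutation test gave p = 0.1 (two-sided), the smallest that 3 against 3 libraries allow. F11r made up 91.7% to 98.6% of the summed FPKM of the JAM genes in each library.

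Ocln, which encodes occludin (ENSMUSG00000021638, chromosome 13), was at or near the detection floor of 3 reads. It had 4, 0 and 1 reads in the PM_0 libraries and 3, 5 and 1 in the PM_100 libraries, FPKM of 0 to 0.0667. No difference could be detected at this depth. Cldn11, the claudin that Sertoli cells place in the barrier (ENSMUSG00000037625, chromosome 3), had 0 reads in all 6 libraries. A count of 0 allows an FPKM of up to 0.0864 to 0.124, depending on the library, which covers counting error only.

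Gja1, which encodes connexin 43, the main connexin of the barrier and of germ cell to Sertoli cell contacts (ENSMUSG00000050953, chromosome 10, 56377330 to 56402513, plus strand), had the largest fold difference that kept its direction with and without PM_0_2. Its FPKM were 11.6, 5.95 and 12.1 in the PM_0 libraries, from 2212, 791 and 2232 reads. They were 17.5, 18.1 and 20.03 in the PM_100 libraries, from 3211, 3301 and 3713 reads. All exposed libraries were above all controls, and the 2 controls other than PM_0_2 lay close together. The means were 9.88 ± 3.41 and 18.6 ± 1.31 (SD, n = 3 each), a ratio of 1.88, and 1.57 without PM_0_2. The log2 fold change was 0.90 (SE 0.29, limma, unadjusted p = 0.0215, adjusted p = 0.875) and 0.61 without PM_0_2 (SE 0.10, limma, unadjusted p = 0.00143, adjusted p = 0.0783). Neither adjusted p passed 0.05.

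**Figure D1:**
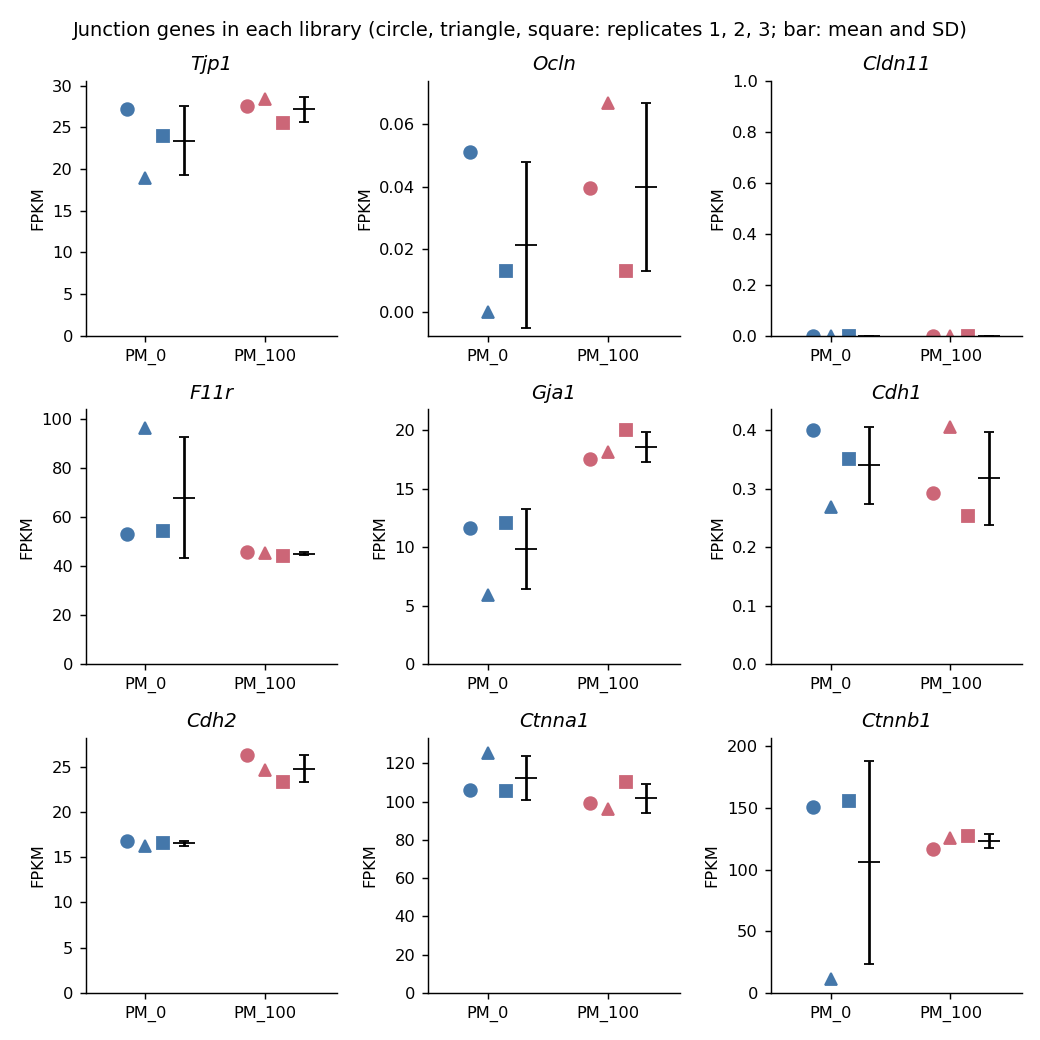
FPKM of each of the 9 junction genes (vertical axis, linear, its range set per gene) in the PM_0 (blue) and PM_100 (red) libraries, where circles, triangles and squares are replicates 1, 2 and 3 and the bars are means and SD (n = 3). Gja1 and Cdh2 lie higher in every PM_100 library than in any control and F11r lower, the PM_0_2 triangle sits at 11.1 for Ctnnb1 against 151 and 155 in the other controls, and Cldn11 is at 0 throughout.

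Of the adherens junction genes, N-cadherin was the cadherin with the higher level and E-cadherin was close to absent. Cdh1, which encodes E-cadherin (ENSMUSG00000000303, chromosome 8), had FPKM of 0.401, 0.270 and 0.352 in PM_0 and 0.294, 0.407 and 0.254 in PM_100, from 16 to 34 reads. The groups overlapped, Cdh1 was under the filter of a mean FPKM of 1 and was not tested with the other genes, and its exact permutation p was 0.8. Cdh2, which encodes N-cadherin (ENSMUSG00000024304, chromosome 18, 16588877 to 16809246, minus strand), had FPKM of 16.8, 16.2 and 16.5 in the PM_0 libraries. It had 26.3, 24.6 and 23.3 in the PM_100 libraries. Here PM_0_2 lay with the other controls, and no exposed library overlapped with them. The means were 16.5 ± 0.299 and 24.8 ± 1.498 (SD, n = 3 each), a ratio of 1.5, and 1.49 without PM_0_2. The log2 fold change was 0.56 (SE 0.17, limma, unadjusted p = 0.0174, adjusted p = 0.875) and 0.54 without PM_0_2 (SE 0.09, limma, unadjusted p = 0.00195, adjusted p = 0.0884).

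The catenins were the most highly expressed members per length. Ctnna1, which encodes α-catenin (ENSMUSG00000037815, chromosome 18, 35118859 to 35254779, plus strand), had FPKM of 106, 125 and 106 in PM_0 and of 99.0, 95.9 and 110 in PM_100. The groups overlapped. The log2 fold change was -0.14 (SE 0.21, limma, adjusted p = 0.877) and -0.06 without PM_0_2 (SE 0.10, 95% interval -0.32 to 0.20, limma, adjusted p = 0.803).

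Ctnnb1, which encodes β-catenin (ENSMUSG00000006932, chromosome 9, 120929216 to 120960507, plus strand), was the member whose difference depended on a single library. Its FPKM were 151, 11.1 and 155 in the PM_0 libraries, from 14556, 748 and 14553 reads. They were 117, 125 and 127 in the PM_100 libraries. PM_0_2 was far below all other libraries, and the other 2 controls were above all exposed ones. With all libraries the means were 106 ± 82.1 and 123 ± 5.67 (SD, n = 3 each), and the log2 fold change was 0.91 (SE 1.01, 95% interval -1.56 to 3.38, limma, adjusted p = 0.875). Without PM_0_2 it had the opposite sign, -0.31 (SE 0.09, 95% interval -0.55 to -0.08, limma, unadjusted p = 0.0193, adjusted p = 0.221), a ratio of 0.803. Of the sequence of Ctnnb1, 13.2% of its 31-base stretches also occur in other genes, and Ulk4 and an antisense RNA overlap it on the opposite strand. Whether the counting used strand is not given in the sources used here, so its level is uncertain to that extent. The same share was 2.44% for Ctnna1, which Lrrtm2 overlaps on the other strand, 1.36% for Gja1, 0.912% for F11r and 0.0871% for Cdh2, which an antisense RNA overlaps.

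**Figure D2:**
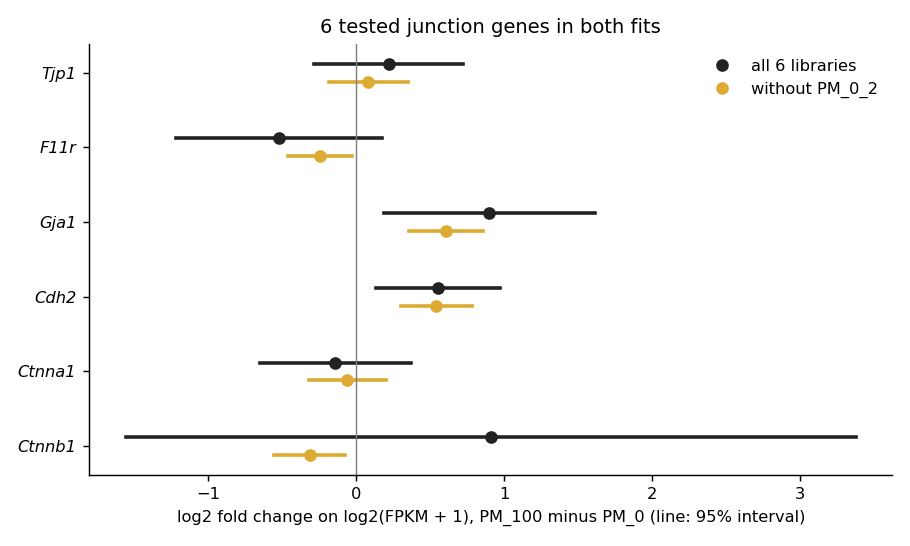
Log2 fold change of PM_100 against PM_0 on log2(FPKM + 1) (horizontal axis) for the 6 members with a mean FPKM of at least 1, as fitted with limma from all 6 libraries (black) and without PM_0_2 (yellow), with 95% intervals as lines. Gja1 and Cdh2 are above 0 in both, and Ctnnb1 moves from 0.91 to -0.31 when PM_0_2 is left out.

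In counts, 6 of the 9 members passed the filter and could be tested, and 0 of the 6 passed an adjusted p of 0.05 (limma), with or without PM_0_2. Over all genes, 11 of 11884 (0.0926%) passed with all libraries, 0.0337% higher and 0.0589% lower, and 119 of 11597 (1.03%) without PM_0_2, 0.31% higher and 0.716% lower. At an unadjusted p under 0.05, Gja1 and Cdh2 were counted with all libraries, both higher, against 3.8% of all genes tested (1.92% higher). Without PM_0_2, F11r and Ctnnb1 were counted as well, 4 of 6 members against 16% of all genes (8.32% higher and 7.67% lower). The groups did not overlap for 3 of the 6 with all libraries, against 15.2% of all genes tested (8.35% higher and 6.85% lower). Without PM_0_2 they did not overlap for 4 of the 6, against 37.6% (17.8% higher and 19.8% lower). When PM_100_3 was left out as well, 4 of the 6 members passed an adjusted p of 0.05 (limma). These were Cdh2 (log2 fold change 0.58, adjusted p = 0.00113), Gja1 (0.55, adjusted p = 0.00121), Ctnnb1 (-0.34, adjusted p = 0.00534) and F11r (-0.23, adjusted p = 0.00903). In that comparison of 2 against 2 libraries, 48.1% of all 11624 genes tested passed too, 24% higher and 24.1% lower.

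PM_0_2 was measured against the mean of the other 2 controls. Ctnnb1 was lower in it by 3.67 on the log2(FPKM + 1) scale, a value that only 13 of 11884 genes (0.109%) reached or went below, and the other controls had 13.8 times its FPKM. Gja1 was at -0.89 and Tjp1 at -0.41, while Cdh2 was at -0.04, Ctnna1 at 0.24 and F11r at 0.83. The members thus departed in both directions, as did all genes, of which 20.6% were above and 20.5% below by more than 1. Vcl, which encodes vinculin at the actin side of adherens junctions, was at -3.62, Rac1, a GTPase of the actin cytoskeleton, at -3.06 and Magi3, a tight junction scaffold, at -2.45. The mitochondrially encoded genes summed to an FPKM of 144405 in PM_0_2 against 11904 to 14156 in the other libraries. The macrophage markers summed to 27.8 in PM_0_2 against 6.44 to 8.71. For the peritubular markers these sums were 89.7 and 43.4 to 61.2, and for the epithelial markers 14.7 and 5.19 to 7.07. These marker sums rest on few genes. Only 2 of 5 macrophage, 1 of 5 peritubular and 2 of 10 epithelial markers had a mean FPKM of at least 1. All genes together also summed higher in PM_0_2, to an FPKM of 579133 against 261945 to 282798. The part of the mitochondrially encoded and marker genes in the departure of Ctnnb1 was not tested.

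**Figure D3:**
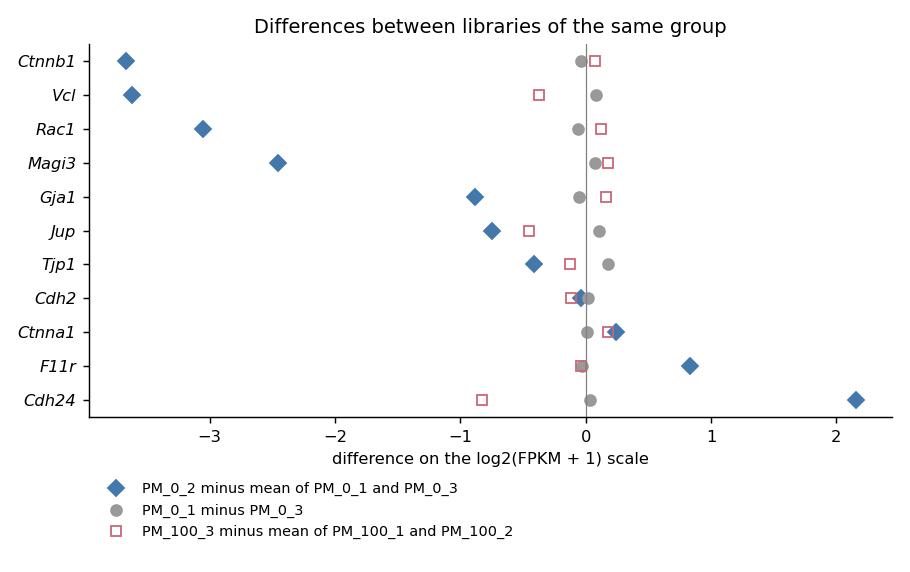
Differences between libraries of the same group on the log2(FPKM + 1) scale (horizontal axis) for members and 5 other junction genes. Blue diamonds (PM_0_2 against the mean of the other controls) run from -3.67 for Ctnnb1 to above 2 for Cdh24, the grey circles (PM_0_1 against PM_0_3) stay near 0, and the open red squares (PM_100_3 against the mean of the other exposed libraries) reach furthest from 0 for Cdh24, at -0.83.

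Ratios between members that bind each other or share a role were taken within each library, where the scaling between libraries largely cancels. Gja1 was lower than Tjp1 in every library, by 1.16, 1.52 and 0.93 on the log2(FPKM + 1) scale in PM_0 and by 0.63, 0.62 and 0.33 in PM_100. The difference between the groups was 0.68, and 0.52 without PM_0_2. F11r was above Tjp1 by 0.94, 2.29 and 1.15 in PM_0 and by 0.71, 0.67 and 0.78 in PM_100, a difference of -0.74, and -0.33 without PM_0_2. Neither pair of groups overlapped, and both had an exact permutation p = 0.1 (0.2 without PM_0_2), the smallest possible. For β-catenin against its partners the sign depended on PM_0_2. Ctnnb1 over Cdh2 differed by 0.35 with all libraries and by -0.86 without PM_0_2, and Ctnnb1 over Ctnna1 by 1.049 and -0.26, with exact permutation p = 1 and 0.2 for both pairs. In all, 4 pairs were tested, and their p-values cannot pass 0.05 in a design of this size.

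The place of each member in its protein family was read per length. Cdh2 made up 42.3%, 25.1% and 41.7% of the summed FPKM of 19 cadherin genes in the PM_0 libraries and 50.8%, 48.8% and 56.1% in the PM_100 libraries. Its share was higher in every exposed library than in any control. Next came Cdh3, which encodes P-cadherin, with 17.5% to 29.0%, and Cdh24, with 53.9% in PM_0_2 and 8.84% to 17.9% elsewhere. Cdh1 made up 0.418% to 1.01%.

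Gja1 made up 37.3%, 17.3% and 39.0% of 20 connexin genes in PM_0 and 51.4%, 51.3% and 56.3% in PM_100. Again the groups did not overlap and in PM_0_2 Gjc1 (33.7%) was above Gja1. Ctnnb1 made up 90.7% to 93.6% of β-catenin and plakoglobin (Jup) together in 5 libraries and 57.5% in PM_0_2. Ctnna1 was 99.7% to 99.9% of the α-catenins, and Tjp1 63.2% to 74.0% of the ZO genes. Of the claudins, Cldn12, which lacks the usual binding site for ZO proteins, held 81.3% to 91.6% in 5 libraries, and in PM_0_2 it shared the sum with Cldn20 (43.2% and 48.4%). These shares carry the differences of the members and of the other genes of each family, and were not tested again. In PM_0_2, for example, the FPKM of Cdh2 (16.2) was near that of the other controls, while Cdh24 had 34.7 against 7.12 and 6.91. In PM_100_3, where the Cdh2 share was highest, Cdh2 had 23.3, the lowest of the exposed libraries, and Cdh24 had 3.68.

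**Figure D4:**
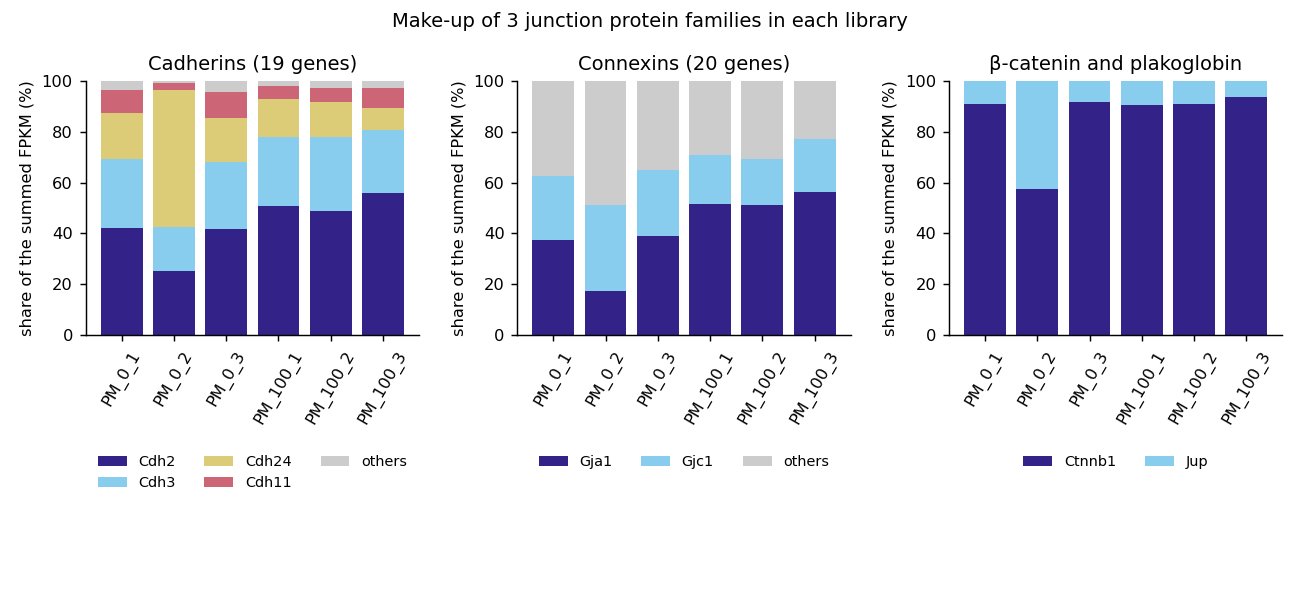
Share of the summed FPKM (vertical axis, percent, from 0 to 100) held by named genes of the cadherins, the connexins and the β-catenin and plakoglobin pair in each library, with the remaining genes of a family in grey. Cdh2 and Gja1 hold 48.8% or more of their families in the PM_100 libraries and at most 42.3% in the controls, and PM_0_2 differs from all other libraries in all 3 families.

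The rest of the junction machinery was read from lists of tight junction, gap junction, adherens junction, desmosome and junctional actin genes, 144 in all, of which 143 were measured and 36 had 0 reads in every library. Among the latter were Cldn3 and Cldn5, which encode claudins of the Sertoli cell barrier, and 9 of 16 desmosome genes, including Dsp, which encodes desmoplakin. With all libraries, 60 were tested and 0 passed an adjusted p of 0.05 (limma), 2 were higher and 1 lower at an unadjusted p under 0.05 (5% of them, against 3.8% of all genes tested), and the median log2 fold change was 0.18 against 0.02 over all genes tested. Without PM_0_2, 0 of 61 passed, 4 were higher and 2 lower at an unadjusted p under 0.05 (9.84% of them, against 16% of all genes tested), and the median was -0.04 against -0.01. With all libraries the groups did not overlap for 7 higher and 4 lower of the 60, against 8.35% and 6.85% of all genes tested. Without PM_0_2 they did not overlap for 9 higher and 15 lower of the 61, against 17.8% and 19.8%. The genes named below as separated between groups are to be read beside these shares. When PM_100_3 was left out as well as PM_0_2, 28 of 61 passed, against the 48.1% of all genes given above.

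Of 21 junctional actin genes tested, Eps8, which encodes an actin capping and bundling protein of Sertoli cell junctions, had FPKM of 1.20, 1.70 and 1.16 in PM_0 and 2.23, 2.20 and 2.67 in PM_100. The groups did not overlap, and its log2 fold change was 0.52 with all libraries (limma, unadjusted p = 0.0296, adjusted p = 0.875) and 0.62 without PM_0_2 (limma, adjusted p = 0.1005). Myl9, a myosin light chain, had 14.3, 39.6 and 14.5 in PM_0 and 23.1, 19.9 and 19.9 in PM_100, and only without PM_0_2 did the groups separate (0.51, limma, adjusted p = 0.122). Zyx, which encodes zyxin, overlapped between groups, with 15.5 to 31.7 in PM_0 and 31.4 to 56.3 in PM_100. The 2 most highly expressed genes of the list, Fscn1 (218 to 425), which encodes fascin, and Cdc42 (141 to 199), a GTPase of cell polarity, overlapped as well with all libraries.

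Of the tight junction genes, 20 were tested with all libraries and 21 without PM_0_2. Cgn, which encodes cingulin, a partner of ZO-1, had 1.93, 2.70 and 2.30 in PM_0 and 4.55, 4.47 and 2.80 in PM_100. Its log2 fold change was 0.56 and 0.65 (limma, adjusted p = 0.875 and 0.237). Its relative Cgnl1, with Amotl2 the most highly expressed gene of the list, had 43.9, 19.4 and 40.5 in PM_0 and 52.2, 50.7 and 49.2 in PM_100 (0.62 and 0.26, limma, adjusted p = 0.875 and 0.276). Both were higher in every exposed library than in any control, and neither passed. Amotl2 overlapped, with 47.5 to 74.8 and 40.9 to 52.6.

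In the adherens list of 13 genes tested, Plekha7, which encodes a protein that binds p120-catenin at the apical junction, was lower in every exposed library. It had 2.22, 2.41 and 2.29 in PM_0 and 1.42, 1.45 and 1.06 in PM_100, with a log2 fold change of -0.52 and -0.50 (limma, adjusted p = 0.875 and 0.167). Cdh11 had 3.73, 1.74 and 3.92 in PM_0 and 2.70, 2.91 and 3.31 in PM_100, and its groups separated only without PM_0_2 (-0.28, limma, adjusted p = 0.303). Nectin2 and Afdn, which encode a nectin and the afadin that binds it, had the highest levels of the list. Nectin2 had 15.6, 33.1 and 15.1 in PM_0 and 26.3, 21.7 and 13.7 in PM_100, and Afdn 15.4, 9.79 and 15.6 in PM_0 and 16.1, 16.0 and 15.6 in PM_100.

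Of the gap junction genes tested, Gjc1, which encodes connexin 45, had 7.94, 11.6 and 8.05 in PM_0 and 6.61, 6.34 and 7.51 in PM_100. It was lower in every exposed library than in any control, opposite to Gja1, with a log2 fold change of -0.37 (limma, adjusted p = 0.875) and of -0.20 without PM_0_2 (limma, adjusted p = 0.411). The 2 desmosome genes tested were Pkp4, higher in every exposed library (0.30 and 0.14, limma, adjusted p = 0.875 and 0.471), and Pkp2, lower in each (-0.26 and -0.15, limma, adjusted p = 0.875 and 0.457).

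**Figure D5:**
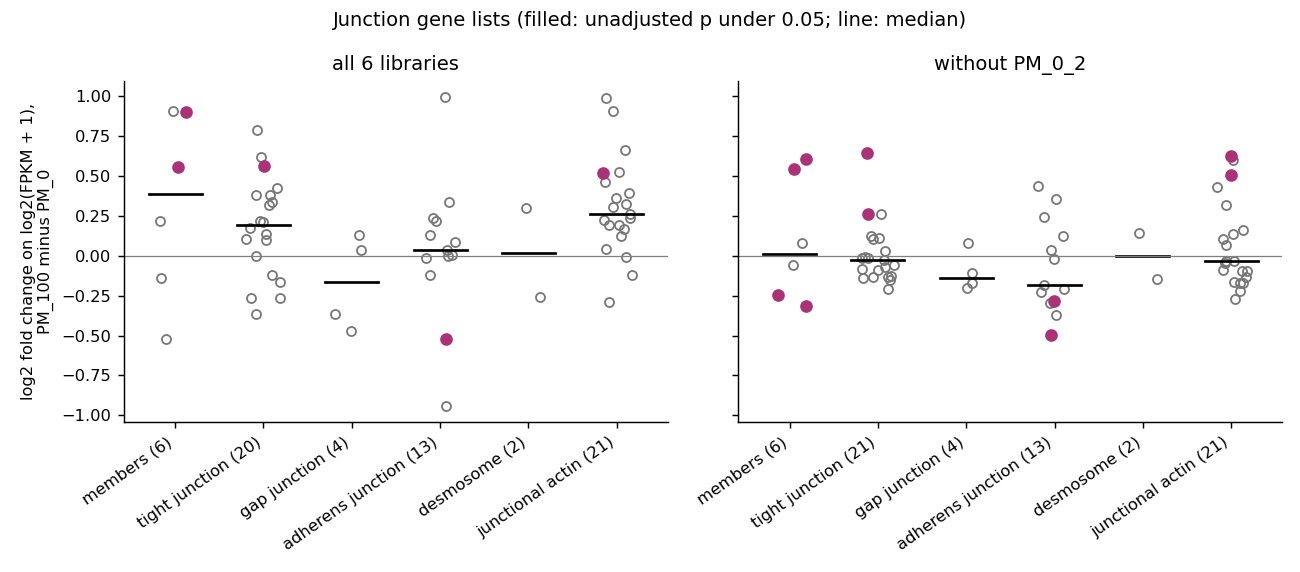
Log2 fold change of PM_100 against PM_0 on log2(FPKM + 1) (vertical axis) for every tested gene of the members and of 5 junction lists (horizontal axis, number tested in brackets), with all 6 libraries at left and without PM_0_2 at right, filled where the unadjusted limma p was under 0.05 and with the median as a line. Most genes lie within 0.5 of 0, and no gene passed an adjusted p of 0.05 in either panel.

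Genes that act on β-catenin, target genes of Wnt signalling and repressors of E-cadherin transcription were read beside the members. Of 6 genes of the complex that marks β-catenin for destruction, 0 passed (limma). The highest were Csnk1a1, a kinase, with 40.4, 22.5 and 39.6 in PM_0 and 32.5, 34.0 and 38.4 in PM_100, and Axin1, its scaffold, with 26.3, 14.8 and 25.6 and 33.5, 33.3 and 21.3. Of 12 Wnt target genes, 4 were tested and 0 passed. Ccnd1, which encodes cyclin D1, had 14.3, 4.93 and 16.4 in PM_0 and 26.9, 24.8 and 21.05 in PM_100, so that all exposed libraries were above all controls. Its log2 fold change was 1.11 and 0.62 (limma, adjusted p = 0.875 and 0.136). Myc had 12.2, 25.7 and 16.2 and 29.1, 27.2 and 18.9 and separated only without PM_0_2 (0.77, limma, adjusted p = 0.222). Axin2 and Lef1, which are direct targets, had FPKM of at most 0.126 and 0.0965. Of 6 repressors of E-cadherin transcription 5 were tested and 0 passed. Twist1 had 17.8, 50.4 and 17.7 in PM_0 and 20.1, 15.7 and 16.7 in PM_100, and Snai1 had 7.38, 5.52 and 8.42 in PM_0 and 14.6, 16.0 and 5.43 in PM_100.

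Markers of other cell types were read beside the members. With all libraries, 2 of the 8 tested fibroblast markers were lower at an unadjusted p under 0.05, against 1.88% of all genes tested. Without PM_0_2, 5 of the 8 were lower at that threshold, against 7.67% of all genes tested. Among them were Col1a2 (-0.67), Fn1 (-0.67) and Col3a1 (-0.59). The log2 fold changes of the 8 ran from -1.21 to 0.25, with 6 below 0 and 2 above it. The groups did not overlap for 5 lower and 1 higher, against 19.8% and 17.8% of all genes tested. In either comparison, 0 of 8 passed an adjusted p of 0.05 (limma). Acta2, a peritubular marker and smooth muscle actin, had 41.6, 88.3 and 43.3 in PM_0 and 59.2, 58.1 and 59.5 in PM_100. Without PM_0_2, 2 of the 5 peritubular markers were tested, with log2 fold changes of 0.46 and -0.24. Their groups did not overlap in that comparison, with 1 marker higher and 1 lower in the exposed libraries. The part of these genes in the differences of Gja1 and Cdh2 was not tested.

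The genes whose pattern over the libraries was most like that of each member were found by Pearson correlation of log2(FPKM + 1) among all genes tested. All points come from the same libraries, of which PM_0_2 lies far out, so the values are descriptions. For Gja1 they were Gm25328, Crim1 and Qdpr over 6 libraries and Rpl31, Rpl27a and Eef1g over the 5 without PM_0_2. For Cdh2 they were Rasa3, Dlc1 and Hmox1, and Ankrd27, Ftsj3 and Cachd1. Crim1 had 32.9, 12.2 and 35.4 in PM_0 and 63.5, 59.2 and 72.9 in PM_100, and Hmox1, which encodes heme oxygenase 1, 25.8, 20.4 and 26.6 in PM_0 and 127, 118 and 90.0 in PM_100. For Ctnnb1 they were Atm, D230025D16Rik and Akirin1 over 6 libraries, where 2021 genes had a correlation above 0.95, and Pkp2, Cask and Vmac over 5. The nearest genes were Pan2, Gm49733 and Git2, and Papolg, Pan2 and Gm49733, for F11r. For Tjp1 they were Epg5, Tmem185b and Dync1h1, and Wdr7, Polr3a and Gm13408, and for Ctnna1 they were Prpf39, Rpl29 and Eif4a2, and Cd109, Dph6 and Ddx42.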

How the data were processed

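Total RNA was sequenced as paired-end reads (NEBNext Ultra, Illumina Novaseq). The authors mapped reads with HISAT2 2.0.5, counted them with featureCounts 1.5.0-p3 and deposited FPKM for 54886 genes per library. The submitters' processing notes name mm9, while the gene identifiers and lengths match GENCODE M21 (GRCm38), from which names, positions and exon lengths of 54495 genes were taken. Multiplied by exon length, 98.1% to 98.4% of the values under 50 reads fell within 0.05 of a whole read in each library. Reads and the floor of 3 reads were recovered in this way. The steps follow size factors and not library totals, so the values were taken as already scaled.

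FPKM were tested as log2(FPKM + 1), with a pseudocount of 1, which understates the fold changes of low genes. A mean FPKM of 1 or more over the libraries compared was required, and genes were fitted in R 4.3.3 with limma 3.58.1 (lmFit and eBayes with trend and robust variances, by statmod 1.5.0), two-sided, with Benjamini-Hochberg adjustment over all genes tested and a threshold of 0.05. Single values were compared with exact permutation tests in scipy 1.17.1. Groups and replicate numbers came from the sample labels. The members, lists and markers, and the choice to leave out PM_0_2, were made with earlier results of these data known. Beside the members, genes were named by small p, by level within a junction list, or by likeness to a member. Magi3, Rac1, Vcl, Jup, Cdh3, Cdh24, Cldn12, Cldn20, Pkp2, the claudins and Dsp at 0, Axin2, Lef1, Snai1 and the markers named singly were named after their values were seen. Of the listed junction genes, Cldn25 was not matched, and some results are not reported here. Alternatives were other filters, pseudocounts and scalings, quantile normalization, voom on the recovered reads, a replicate block and leaving out each library. The scaling to 9 reference genes was chosen after seeing the data. The fits were tested on simulated data, and the limit on false calls was loosened after a stricter one was missed. Tables were built in pandas 2.3.3 with numpy 2.4.6, and plots in matplotlib 3.10.9.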

Additional observations from a re-analysis of the deposited data

How the results depend on the processing

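With 3 libraries a group and 1 control far from the others, the spread limits what can be called. With all 6 libraries, 0 members and 0 other junction genes passed under each of the 15 alternatives run. Ctnnb1 had a log2 fold change of 0.91, which lay between -0.31 and 1.53 when a library was left out, and the negative value came without PM_0_2. Ctnna1 (-0.14) turned to 0.018 under quantile normalization and to 0.17 when scaled to reference genes, a scaling chosen after seeing the data that moved the median of all genes to 0.28. Leaving out single libraries moved Ctnnb1 over Cdh2 between -0.86 and 0.98 and Ctnnb1 over Ctnna1 between -0.26 and 1.71, with the negative values without PM_0_2. The other members and pairs kept their direction.

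Without PM_0_2, leaving out another library gave between 0 and 4 members and between 0 and 28 other junction genes past the threshold, both highest without PM_100_3. The ranges of the log2 fold changes were 0.55 to 0.64 for Gja1, 0.50 to 0.58 for Cdh2, -0.26 to -0.23 for F11r and -0.34 to -0.28 for Ctnnb1, and these 4 passed only without PM_100_3. Tjp1 (0.08) ranged from -0.0053 to 0.17, and was below 0 without PM_0_3. Ctnna1 (-0.06) was 0.071 when scaled to reference genes, where the median of all genes was 0.10. Under that scaling F11r was -0.12 (limma, unadjusted p = 0.43) and Ctnnb1 -0.18 (limma, unadjusted p = 0.161), both nearer to 0. Gja1 was then 0.73, Cdh2 0.67 and Tjp1 0.21, all further from it. Where a single control was left, it was assumed to vary like the other libraries. Apart from the construction of each alternative, the cause was not tested.

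After the group means were taken off, libraries that share a replicate number correlated at -0.285, 0.180 and 0.253. Of the 6 libraries, 4 (PM_0_1, PM_0_2, PM_100_1 and PM_100_3) correlated best with another number. PM_0_2 lies so far out that it also sets the deviations of the other controls, which both run opposite to it. These values therefore cannot decide whether the numbers pair the libraries. With a replicate block, 0 genes passed with all libraries and 135 without PM_0_2 (11 and 119 without the block), and 0 members and 0 other junction genes passed in either. Without PM_0_2, PM_100_2 has no control of its number, so the block takes that library up. The group differences then equal those without PM_100_2, and 135 and 119 do not rest on the same libraries. Over all genes with all libraries, 0 passed by voom or with no filter, 2 when scaled to reference genes, and without PM_0_2 leaving out single libraries gave 0 to 5594.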
